A study of Marchantia polymorpha with 12 samples.

Results

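The comparison set both mutant lines of the liverwort Marchantia polymorpha, 6 libraries, against both wild types, 6 libraries, with sex as a covariate. It used all 12 libraries of the series, 3 in each of 4 groups. The male wild type was Tak-1 and the female wild type Tak-2. Mpfer-1 is male and labelled as a knockdown of the receptor kinase MpFER. Mpmri-1 is female and labelled as a knockdown of the kinase MpMRI. All plants were grown for 3 weeks on cellophane over solid Johnson's medium under long days, and messenger RNA came from thalli with their rhizoids, the single-celled filaments that anchor the plant. The study describes both lines as having short rhizoids that burst. Each mutant was 1 line, and an effect of the line, of its targeted gene and of its sex cannot be told apart. The common effect was the mean of the 2 within-sex differences, in log2 units, from edgeR's quasi-likelihood test with Benjamini-Hochberg adjustment over 14044 tested genes. Genes with an adjusted p under 0.05 count as called, higher or lower in the mutants. The labels do not say whether replicates came from separate cultures, so the p-values measure the spread between these samples.

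FERONIA and its relatives are malectin-like receptor kinases at the plasma membrane that monitor the state of the cell wall. They bind RALF peptides together with GPI-anchored LORELEI-like proteins. MARIS is a receptor-like cytoplasmic kinase that acts downstream of such receptors in Arabidopsis. Loss of either protein makes tip-growing cells burst, root hairs in flowering plants and rhizoids in Marchantia. In Arabidopsis FERONIA also modulates abscisic acid responses and immune signalling.

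Total counts per library ran from 25548031 to 35313206. Levels below are CPM (counts divided by library total, in units of 1e-06) on totals scaled by TMM, edgeR's trimmed-mean normalization. They are not corrected for transcript length, so a level is compared between libraries and not between genes. The TMM factors were 0.99 to 1.05 in Tak-1, 1.14 to 1.19 in Mpfer-1, 0.94 to 0.97 in Tak-2 and 0.80 to 0.93 in libraries labelled Mpmri-1. Relative to library totals, TMM thus lowers levels in Mpfer-1 and raises them in libraries labelled Mpmri-1. Differences between the 2 lines depend in part on this scaling. Within groups, Spearman correlations of CPM were 0.993 or higher in Tak-1, Mpfer-1 and Tak-2. In the libraries labelled Mpmri-1 they were 0.989 between replicates A and B, 0.981 between A and C and 0.976 between B and C, so replicate C stood apart. The photosynthetic gene MpRBCS was detected in all 12 libraries, at 278, 265 and 308 CPM in Tak-1, 77.3, 89.1 and 76.0 CPM in Mpfer-1, 171, 193 and 137 CPM in Tak-2 and 294, 191 and 184 CPM in libraries labelled Mpmri-1. It fell in Mpfer-1 and not in libraries labelled Mpmri-1, with log2 differences of -1.81 in Mpfer-1 and 0.42 in libraries labelled Mpmri-1 (adjusted p = 4.89e-06 and 0.0507), and was not called in the common effect (log2 fold change -0.70 ± 0.37 SE, adjusted p = 0.127). The common effect passed with 1 mean per group (adjusted p = 3.03e-04), without replicate C of Tak-2 (0.0496) and without replicate A labelled Mpmri-1 (0.0350). In bulk samples such as these, fewer cells of a type and less RNA per cell cannot be told apart.

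The targeted genes did not behave alike. MpFER (Mp4g15890) was at 169, 169 and 154 CPM in Tak-1, 102, 89.0 and 95.5 CPM in Mpfer-1, 182, 181 and 188 CPM in Tak-2 and 214, 179 and 193 CPM in libraries labelled Mpmri-1. It was low in Mpfer-1 and not in the other line. The log2 difference was -0.78 in Mpfer-1 and 0.09 in libraries labelled Mpmri-1, and the common effect missed the threshold (log2 fold change -0.35 ± 0.14 SE, adjusted p = 0.0532). It passed under some alternatives, for example DESeq2 (adjusted p = 0.0326). MpMRI (Mp7g17560) was at 233, 234 and 241 CPM in Tak-1, 235, 212 and 231 CPM in Mpfer-1, 264, 269 and 267 CPM in Tak-2 and 698, 649 and 764 CPM in libraries labelled Mpmri-1. Its level was higher, not lower, in all 3 libraries labelled Mpmri-1 than in every other library. A fall in RNA was thus not measured, although the label names a knockdown. The value sums all transcript models of the gene, and its intact RNA and its protein were not tested. These libraries are therefore named by their label throughout. The common effect on MpMRI was called (log2 fold change 0.67 ± 0.23 SE, adjusted p = 0.0242), with -0.06 in Mpfer-1 and 1.40 in libraries labelled Mpmri-1. The call was lost when any 1 Tak-2 library was left out (adjusted p = 0.0707 to 0.0715).

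The common mutant effect was broad. It was called for 8185 genes, 58.3% of those tested: 4256 were higher in the mutants (30.3%) and 3929 lower (28.0%). Many of these differences were small: the median absolute log2 fold change of called genes was 0.69, with a median SE of 0.12, and 2822 of them, 34.5%, were under 0.5. A log2 fold change of at least 1 was reached by 1774 higher genes (12.6%) and by 1188 lower genes (8.46%). The median over all tested genes was 0.0035. Genes called higher took 13.3% to 15.4% of all counts in the wild types and 28.0% to 34.1% in the mutants. Genes called lower took 39.9% to 45.7% in the wild types and 24.7% to 28.7% in the mutants. These shares describe the called genes and are no test of them.

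Both lines contributed to most calls. Of the 8185 genes, 8021 had the same sign in both lines and 5112 were also called the same way in each line alone. The common fit counts a difference between lines as spread, so genes with opposite signs were seldom called. This agreement was thus partly set by the selection and is no test of it. A further 1159 were called in Mpfer-1 alone, 1706 in the line labelled Mpmri-1 alone and 206 in neither line. Tested alone, Mpfer-1 gave 7893 called genes (56.2%), 29.1% higher and 27.1% lower. The libraries labelled Mpmri-1 gave 9004 (64.1%), 33.0% higher and 31.1% lower. The size of the effect differed between the lines at an adjusted p under 0.05 for 5238 tested genes (37.3%), among them 2777 of the 8185. Over all tested genes, 617 were called in both lines in opposite directions, and 2 of these were called in the common effect. Of the total sum of squares of log2 CPM, the common mutant effect took 62.6%, sex 20.5%, the difference between lines 9.19% and the spread within groups 7.79%. Without the genes of the sex chromosomes U and V these were 70.1%, 10.9%, 10.2% and 8.72%.

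**Figure D1:**
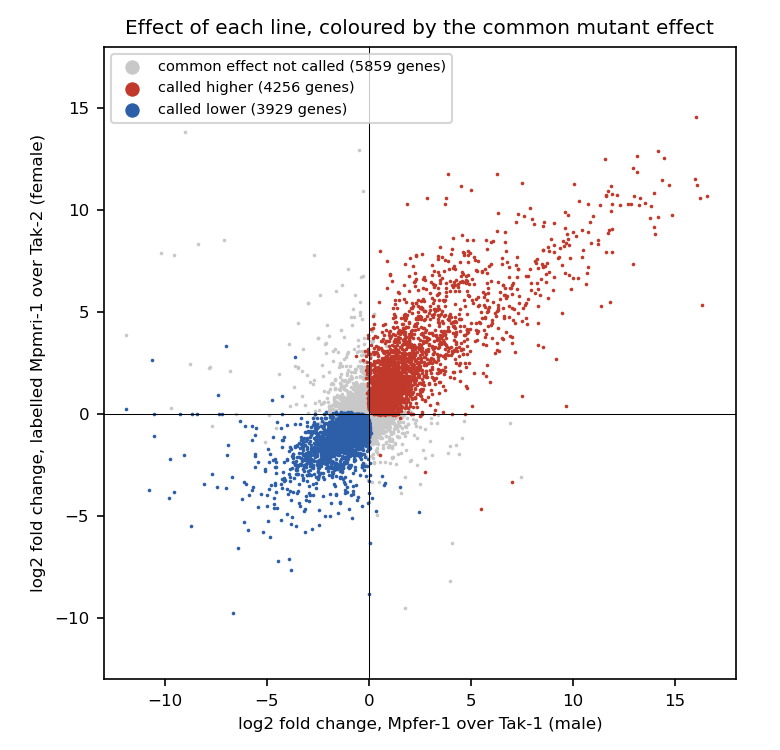
Log2 fold change of each of 14044 tested genes in Mpfer-1 over Tak-1 (x axis) and in libraries labelled Mpmri-1 over Tak-2 (y axis). Each point is a gene, red where the common mutant effect was called higher (4256), blue where it was called lower (3929) and grey where it was not called (5859). Most coloured points lie where both lines have the same sign, which the call itself favours.

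All 6 mutant libraries lay above all 6 wild types for 2480 genes that were called higher with the same sign in both lines (17.7% of tested genes). All 6 lay below for 1934 genes called lower (13.8%). The rest of the text takes the called genes by role, in lists built from gene symbols. Each list is read against the background of 30.3% higher and 28.0% lower. The list calls were counted without a test of the list, and the plot of calls by list gives all lists with at least 6 tested genes.

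**Figure D2:**
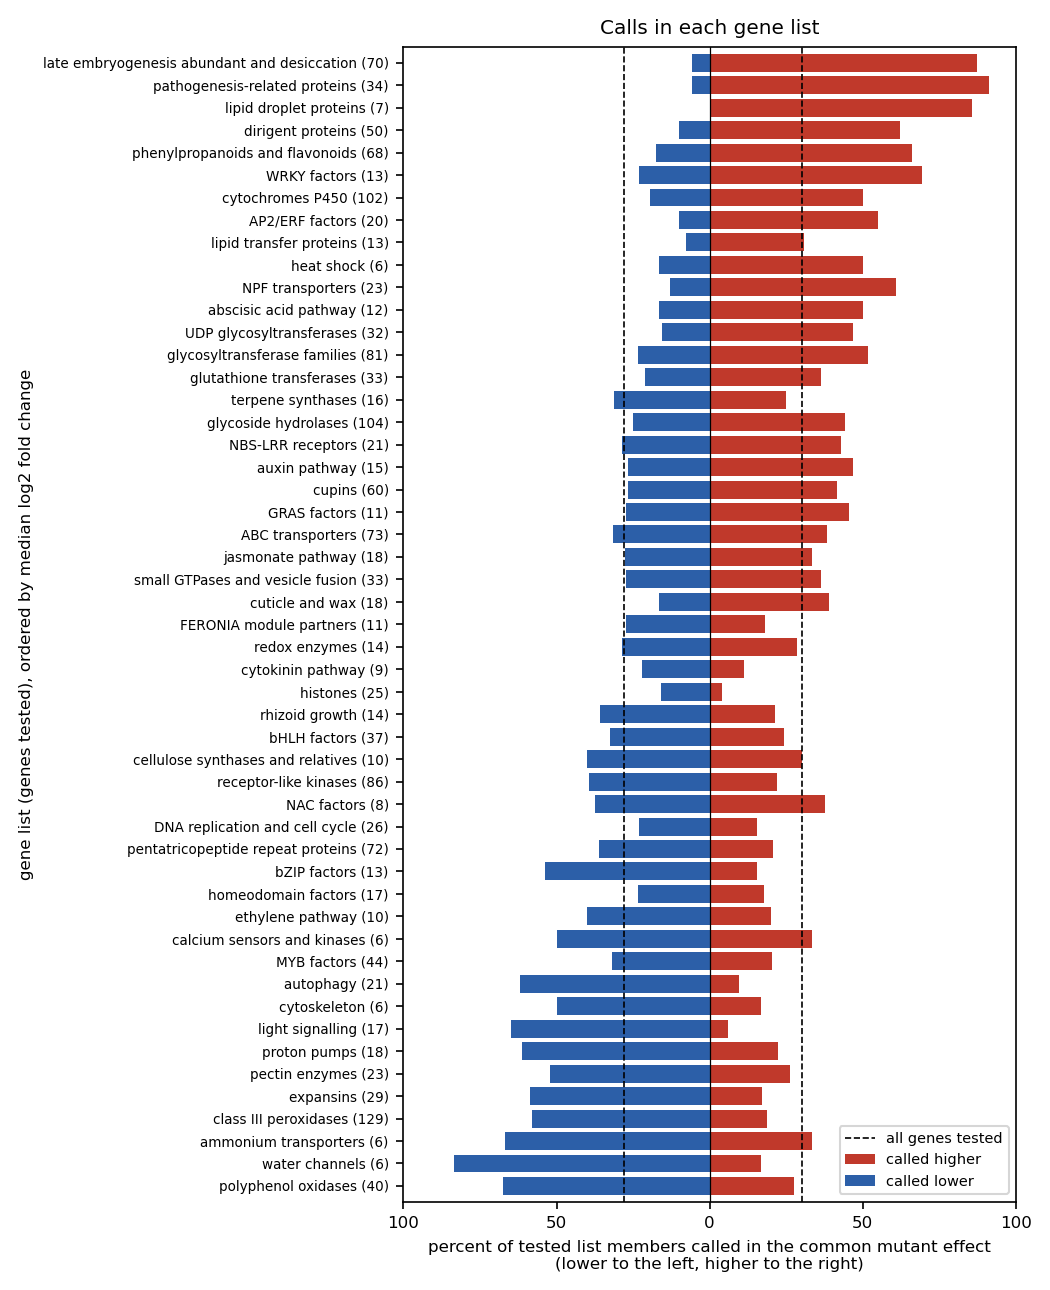
Percent of the tested members of each gene list called higher (red, to the right) or lower (blue, to the left) in the common mutant effect, with the number tested in brackets and the lists ordered by median log2 fold change. Dashed lines mark the shares over all tested genes, 30.3% higher and 28.0% lower; late embryogenesis abundant and pathogenesis-related proteins extend furthest to the right and water channels furthest to the left.

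The list of module partners held MpFER, MpMRI and genes for their ligands, coreceptors, NADPH oxidases and other partners. In it, 2 of 11 tested genes were called higher and 3 lower, with MpMRI among the higher, so that the 27.3% called lower was near the share over all genes. DESeq2 called 2 higher and 5 lower, and without any 1 Tak-2 library 1 was called higher. The ligand gene MpRALF3 (Mp1g27120) fell from 7.30 to 13.6 CPM over the 6 wild types to 4.48 to 6.32 CPM over the 6 mutants (log2 fold change -0.88 ± 0.12 SE, adjusted p = 6.65e-05). No mutant library reached the wild-type range. MpRALF2 (Mp2g21670), a second ligand, fell in the common effect (log2 fold change -0.55 ± 0.13 SE, adjusted p = 0.00408), but its levels were 43.3 to 49.1 CPM in Mpfer-1 and 56.8 to 75.1 CPM in libraries labelled Mpmri-1, against 69.5 to 91.2 CPM in the wild types. The groups overlapped through 1 library labelled Mpmri-1. MpLRE2 (Mp4g22100), a LORELEI-like coreceptor gene, fell by less, with log2 fold change -0.51 ± 0.08 SE, adjusted p = 1.68e-04. MpNOX2 (Mp3g20340), a NADPH oxidase gene, rose from 89.5 to 99.1 CPM in the wild types to 128 to 195 CPM in the mutants (log2 fold change 0.69 ± 0.08 SE, adjusted p = 1.66e-05). Reactive oxygen made by such oxidases is a known output of FERONIA signalling in Arabidopsis.

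Genes of the abscisic acid pathway moved in part. This hormone is made under water shortage and drives desiccation tolerance in vegetative tissue of liverworts and in seeds. Of its genes, 6 of 12 tested genes were called higher and 2 lower, with a median log2 fold change of 0.32. MpNCED (Mp2g07800), the gene of the dioxygenase that cleaves carotenoids in the committed step of synthesis, was at 0.632, 0.786 and 0.771 CPM in Tak-1, 4.36, 4.38 and 6.79 CPM in Mpfer-1, 0.50, 0.551 and 0.510 CPM in Tak-2 and 2.86, 2.97 and 1.05 CPM in libraries labelled Mpmri-1. Every mutant library was above every wild type, and replicate C of the libraries labelled Mpmri-1 was the lowest of the mutants. The gene rose with log2 fold change 2.50 ± 0.28 SE, adjusted p = 1.02e-05. MpABI3A (Mp5g08310), the transcription factor gene that relays the hormone to seed-type genes, ranged from 27.7 to 37.6 CPM (median 35.0) in the wild types and from 59.2 to 95.3 CPM (median 81.4) in the mutants and rose (log2 fold change 1.20 ± 0.11 SE, adjusted p = 2.22e-06). MpABI5B (Mp2g22820), a bZIP factor gene, rose as well (log2 fold change 1.18 ± 0.18 SE, adjusted p = 1.42e-04), more in Mpfer-1 (1.66) than in libraries labelled Mpmri-1 (0.69). Its relative MpABI5A (Mp2g23600) fell from 54.0 to 61.6 CPM in the wild types to 27.4 to 35.5 CPM in the mutants (log2 fold change -0.95 ± 0.06 SE, adjusted p = 2.40e-07). MpABA1 (Mp2g00670), named for zeaxanthin epoxidase earlier in synthesis, also fell (log2 fold change -0.61 ± 0.07 SE, adjusted p = 1.32e-05). MpCYP707A (Mp2g25940), whose product breaks the hormone down, was called higher (log2 fold change 1.38 ± 0.48 SE, adjusted p = 0.0260), with a log2 difference of 0.07 in Mpfer-1 and 2.93 in libraries labelled Mpmri-1. The call was lost when any 1 Tak-2 library was left out (adjusted p = 0.0709 to 0.0766), without sex as a covariate (0.0784) and with limma voom (0.0501).

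Late embryogenesis abundant (LEA) genes, whose hydrophilic proteins protect drying cells, were higher in most members. Of these and related desiccation genes, 61 of 70 tested genes were called higher and 4 lower, and 51 of the higher ones had all mutant libraries above all wild types. The median log2 fold change was 5.98, against 0.0035 over all genes, and stayed at 5.98 when the 4 genes at 0 on the wild-type side were placed at their bound. Of the 70 genes, 6 had at most 3 counts over the wild types and passed the count filter only through the mutants. Members with a few more wild-type counts did so too, and their number was not taken. Such genes could hardly be called lower. Without replicate C of the libraries labelled Mpmri-1 the list gave 62 higher, 4 lower and a median of 6.27. MpLEAL1 (Mp4g09300) was at 1.60, 3.08 and 2.94 CPM in Tak-1, 1965, 1898 and 2987 CPM in Mpfer-1, 4.42, 3.12 and 3.16 CPM in Tak-2 and 841, 2158 and 294 CPM in libraries labelled Mpmri-1. It was at a few CPM in the wild types and between 294 and 2987 CPM in the mutants (log2 fold change 9.03 ± 0.61 SE, adjusted p = 2.24e-07). The log2 difference was 9.80 in Mpfer-1 and 8.27 in libraries labelled Mpmri-1.

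MpLEA-like28 (Mp4g17570) had 5 counts over the 6 wild types and 46359 over the 6 mutants. Its mutant levels were 272, 215 and 428 CPM in Mpfer-1 and 153, 283 and 24.6 CPM in libraries labelled Mpmri-1. All 6 lay above every wild type (log2 fold change 12.81 ± 0.86 SE, adjusted p = 2.16e-07). MpLEA-like9 (Mp2g26450) rose similarly (log2 fold change 12.96 ± 0.82 SE, adjusted p = 1.47e-07), with a value of 13.67 without replicate C of Tak-1. MpLEA-like45 (Mp6g03120) also rose (log2 fold change 12.36 ± 0.85 SE, adjusted p = 2.62e-07), with 13.35 without replicate A of Tak-2. Each of these 2 had 7 counts over the wild types, so the exact size of the fold is poorly fixed. MpLEA-like46 (Mp6g03130) had 4 counts in the wild types and 17429 in the mutants, with log2 fold change 11.66 ± 0.82 SE, adjusted p = 3.07e-07, or 12.42 without replicate A of Tak-2. MpLEA-like43 (Mp6g03100) had 3 wild-type counts and 13603 mutant counts, a ratio of 4247 in CPM (95% exact interval 1453 to 20597). MpCAT1 (Mp7g09020), outside the list, had 1 wild-type count and 10029 mutant counts, a ratio of 9394 in CPM (95% exact interval 1686 to 371070.0). These intervals cover counting error only.

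The summed level of the LEA and desiccation list was 1228 to 1299 CPM in Tak-1 and 1559 to 1676 CPM in Tak-2. It was 9906, 9403 and 14136 CPM in Mpfer-1 and 7138, 12080 and 2905 CPM in libraries labelled Mpmri-1. Replicate C of the latter was the lowest mutant library and still above every wild type. Not all members rose. MpLEA-like54 (Mp6g19740) ranged from 27.6 to 53.1 CPM (median 43.9) in the wild types and from 3.96 to 8.63 CPM (median 6.59) in the mutants and fell (log2 fold change -2.73 ± 0.22 SE, adjusted p = 9.11e-07). MpLEA-like33 (Mp5g22700) fell within each sex (log2 fold change -1.75 ± 0.12 SE, adjusted p = 1.94e-07), with 133 to 144 CPM in Tak-1 and 33.4 to 36.1 CPM in Mpfer-1. The female wild type had 343 to 378 CPM and the female mutant 94.5 to 141 CPM. MpLEA-like5 (Mp1g25220) fell too (log2 fold change -2.23 ± 0.25 SE, adjusted p = 1.22e-05).

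Genes of lipid droplet proteins rose with them. These proteins coat oil stores in seeds and in drought-stressed leaves. Of the list, 6 of 7 tested genes were called higher and 0 lower, with a median of 2.21. MpOLEOSIN (Mp5g10430), for the structural coat protein, was at 2.50, 2.86 and 3.26 CPM in Tak-1, 29.4, 28.0 and 29.7 CPM in Mpfer-1, 3.58, 4.04 and 3.88 CPM in Tak-2 and 29.1, 35.7 and 24.7 CPM in libraries labelled Mpmri-1. The mutants were close to each other and all above the wild types (log2 fold change 3.15 ± 0.12 SE, adjusted p = 9.66e-09). MpCALEOSIN (Mp5g05270), for a calcium-binding droplet protein, ranged from 0.228 to 0.583 CPM (median 0.350) in the wild types and from 2.87 to 63.2 CPM (median 30.2) in the mutants, with log2 fold change 6.12 ± 0.67 SE, adjusted p = 9.92e-06. Its lowest mutant level was in replicate C of the libraries labelled Mpmri-1. MpLDAP (Mp4g15940), for a droplet-associated protein, rose by less (log2 fold change 1.15 ± 0.12 SE, adjusted p = 7.28e-06), and MpLDAL2 (Mp6g19070) gave log2 fold change 2.21 ± 0.13 SE, adjusted p = 1.21e-07. MpLDAL1 was not called and had a log2 fold change of -0.03.

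Water channel genes were low in the mutants. Aquaporins carry water across the plasma membrane (PIP type) and the vacuolar membrane (TIP type). All 6 tested members were called, 5 lower and 1 higher, each with all mutant libraries on one side of all wild types. Their summed level ran from 6773 to 8238 CPM in the wild types and from 2485 to 4302 CPM in the mutants. MpTIP1 (Mp1g20890) was at 3660.0, 3705 and 3699 CPM in Tak-1, 1100.4, 1255 and 1282 CPM in Mpfer-1, 4296, 4458 and 3770.5 CPM in Tak-2 and 2010.4, 1707 and 1664 CPM in libraries labelled Mpmri-1. The gene fell in both lines (log2 fold change -1.41 ± 0.12 SE, adjusted p = 1.01e-06). MpPIP2 (Mp4g17210) ranged from 2937 to 3699 CPM (median 3181) in the wild types and from 1299 to 2177 CPM (median 1739) in the mutants, with log2 fold change -0.92 ± 0.10 SE, adjusted p = 9.54e-06. MpTIP2 (Mp6g11780) fell further (log2 fold change -1.91 ± 0.13 SE, adjusted p = 2.27e-07). MpPIP1 (Mp4g03020) fell from 2.96 to 7.71 CPM to 0.135 to 0.234 CPM (log2 fold change -4.77 ± 0.27 SE, adjusted p = 7.51e-08). MpPIP2-like (Mp4g04460), also at low level, gave log2 fold change -4.89 ± 0.70 SE, adjusted p = 8.20e-05, or -5.53 without replicate C of the libraries labelled Mpmri-1. The member that rose was MpNIP (Mp8g11200), of the nodulin-type class whose members in other plants also carry small solutes such as glycerol and boric acid. It ranged from 17.5 to 26.4 CPM (median 19.6) in the wild types and from 50.9 to 96.6 CPM (median 71.9) in the mutants (log2 fold change 1.80 ± 0.15 SE, adjusted p = 1.43e-06).

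**Figure D3:**
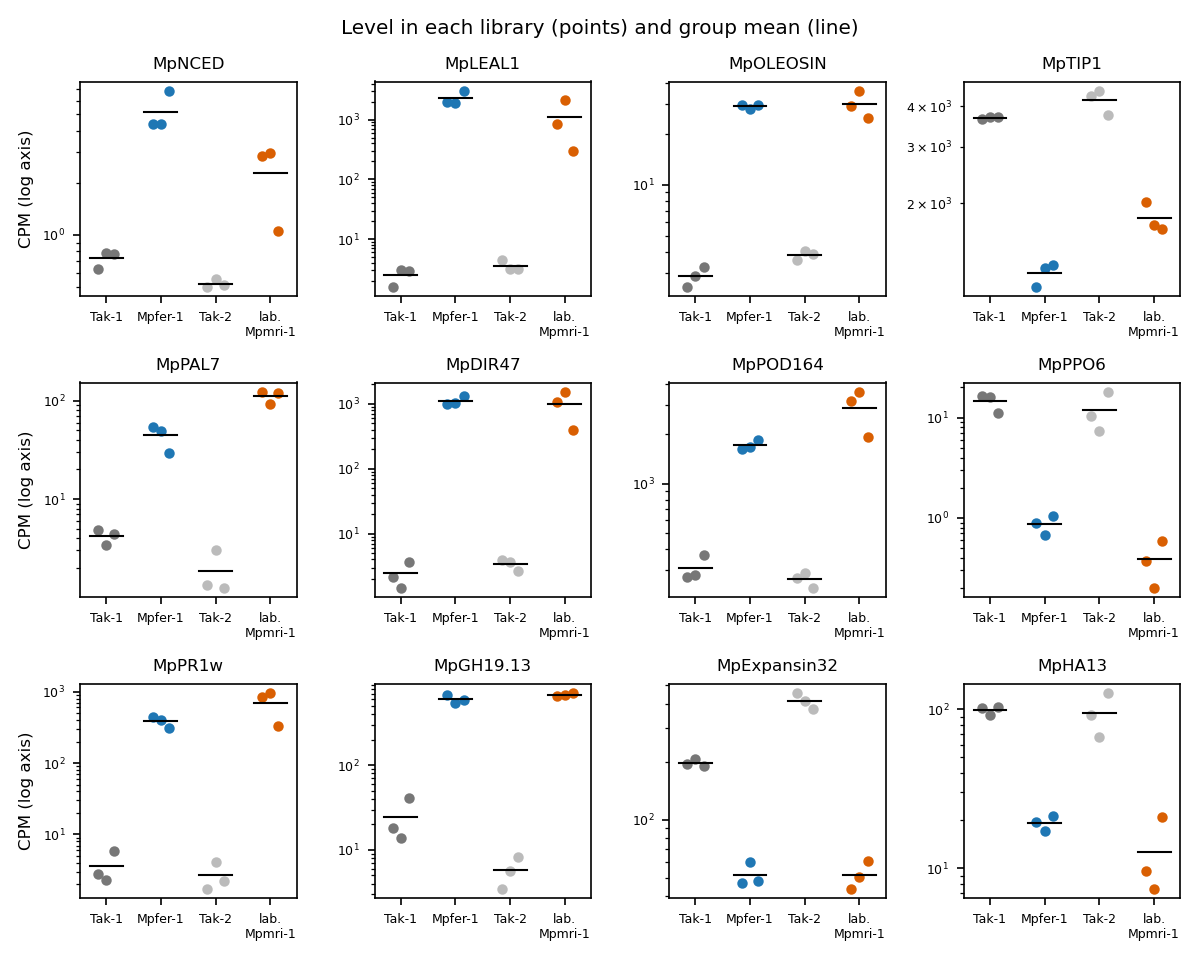
Level in CPM (log axis, its own range in each panel) of 12 genes in each library, with 3 points per group and a line at the group mean. In every panel both mutant lines lie on the same side of both wild types, above for MpNCED, MpLEAL1, MpOLEOSIN, MpPAL7, MpDIR47, MpPOD164, MpPR1w and MpGH19.13 and below for MpTIP1, MpPPO6, MpExpansin32 and MpHA13.

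Phenylpropanoid and flavonoid genes rose as a large group. The pathway starts with phenylalanine ammonia-lyase (PAL) and, through chalcone synthase (CHS) and related polyketide synthases (PKS), leads to flavonoids and auronidin pigments, which in Marchantia accumulate under stress. Of its genes, 45 of 68 tested genes were called higher and 12 lower, with a median of 0.94. The summed level was 2958 to 3282 CPM in the wild types, 5232 to 5928 CPM in Mpfer-1 and 8193 to 9124 CPM in libraries labelled Mpmri-1. Part of the gap between the 2 mutant lines depends on their TMM factors. MpPAL7 (Mp4g14110) was at 4.86, 3.43 and 4.40 CPM in Tak-1, 54.5, 49.4 and 29.6 CPM in Mpfer-1, 1.33, 3.01 and 1.26 CPM in Tak-2 and 122, 93.1 and 119 CPM in libraries labelled Mpmri-1. Both lines were above both wild types, the female line more so (log2 fold change 4.56 ± 0.47 SE, adjusted p = 5.89e-06). The log2 difference was 3.39 in Mpfer-1 and 5.89 in libraries labelled Mpmri-1. MpPAL3 (Mp7g14880) ranged from 0.333 to 1.71 CPM (median 1.14) in the wild types and from 34.3 to 68.4 CPM (median 57.7) in the mutants (log2 fold change 5.75 ± 0.37 SE, adjusted p = 1.54e-07). MpPAL2 (Mp4g03590) was nearly absent from the wild types, at 0 to 0.208 CPM, and reached 6.28 to 45.3 CPM in the mutants (log2 fold change 7.81 ± 0.52 SE, adjusted p = 2.22e-07). Closely related copies of PAL and CHS can share reads, so the split of counts between them is uncertain.

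MpPAL7 belongs to a run of 11 consecutive genes on chromosome 4, MpPKS/CHS10 to MpPKS/CHS16, all with a PAL or CHS symbol. Genes count as consecutive here in the order of their identifiers, and identifiers absent from the deposited counts were passed over. The run was singled out after its values were seen, as the longest series of neighbouring identifiers that were all called in 1 direction with a log2 fold change of at least 1. Its log2 fold changes ran from 2.06 to 4.56, and all 11 genes had every mutant library above every wild type. Their summed level was 249 to 448 CPM in the wild types, 1561 to 1848 CPM in Mpfer-1 and 2395 to 2864 CPM in libraries labelled Mpmri-1. The difference between lines was called for 10 of the 11. MpPKS/CHS10 (Mp4g14100), the first of the run, ranged from 14.2 to 27.3 CPM (median 21.5) in the wild types and from 127 to 168 CPM (median 145) in the mutants (log2 fold change 2.81 ± 0.10 SE, adjusted p = 9.66e-09). The nearest tested genes on both sides were not called higher, with log2 fold changes of -0.44 for Mp4g14080 and -0.17 for Mp4g14230. Of the other flanking genes tested, Mp4g14250 was called higher with 0.94 (adjusted p = 6.95e-06), while Mp4g14070 gave -0.62 and Mp4g14240 0.014.

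**Figure D4:**
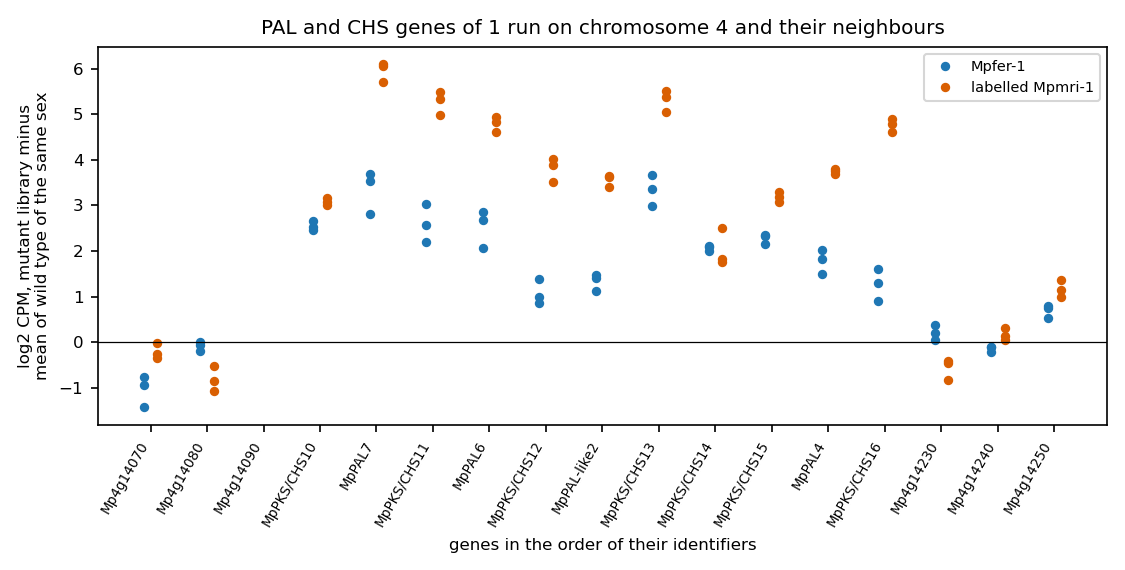
Log2 CPM of each mutant library minus the mean of the 3 wild types of its sex (y axis) for the 11 PAL and CHS genes of 1 run on chromosome 4 and 3 identifiers on each side, in the order of their identifiers (x axis). Points are libraries; all points of the run lie above 0, those labelled Mpmri-1 mostly higher, while Mp4g14090 was not tested and has no points.

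Other genes of the same metabolism fell. MpHCT (Mp7g12690), for the acyltransferase that leads to lignin-type hydroxycinnamate esters in other plants, ranged from 276 to 391 CPM (median 313) in the wild types and from 57.8 to 114 CPM (median 63.3) in the mutants (log2 fold change -2.15 ± 0.12 SE, adjusted p = 6.29e-08). MpPAL9 (Mp1g05220) fell from 21.2 to 27.6 CPM to 5.36 to 8.97 CPM (log2 fold change -1.74 ± 0.12 SE, adjusted p = 3.73e-07). MpOMT3 (Mp1g28130), an O-methyltransferase gene by its symbol, fell with log2 fold change -3.59 ± 0.17 SE, adjusted p = 2.85e-08. MpPKS/CHS7 (Mp2g22780) also fell (log2 fold change -2.98 ± 0.19 SE, adjusted p = 1.74e-07). Of cytochrome P450 genes, whose products oxidise many such compounds, 51 of 102 tested genes were called higher and 20 lower. Among families taken by symbol stem, the 22 tested CYP829 genes had 14 called higher, 1 lower and a median of 2.03.

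Dirigent proteins steer the coupling of phenoxy radicals into lignans and related compounds in other plants. Of their genes, 31 of 50 tested genes were called higher and 5 lower in the common effect, with a median of 1.74. The lines were not alike here, and their difference was called for 32 of the 50. Mpfer-1 alone gave 27 rises and 14 falls (median 1.14). The female mutant gave 39 rises against Tak-2 and only 4 falls (median 2.12). The summed level rose from 1139 to 1436 CPM in the wild types to 3987 to 7849 CPM in the mutants. MpDIR47 (Mp3g24150) was at 2.13, 1.48 and 3.71 CPM in Tak-1, 976, 1012 and 1297 CPM in Mpfer-1, 3.88, 3.60 and 2.65 CPM in Tak-2 and 1069, 1503 and 400.5 CPM in libraries labelled Mpmri-1. Its level was a few CPM in the wild types and at least 400.5 CPM in every mutant library (log2 fold change 8.50 ± 0.41 SE, adjusted p = 2.94e-08). MpDIR48 (Mp3g24140), its neighbour, gave log2 fold change 8.30 ± 0.40 SE, adjusted p = 2.94e-08, and 5 consecutive DIR genes from MpDIR48 to MpDIR44 were all higher with a median of 8.30. A second run of 5, MpDIR36 to MpDIR32 on chromosome 5, had a median of 3.93. MpDIR10 (Mp4g18510) went the other way, with levels that ranged from 28.5 to 63.6 CPM (median 47.8) in the wild types and from 6.37 to 19.5 CPM (median 11.9) in the mutants (log2 fold change -1.99 ± 0.14 SE, adjusted p = 3.49e-07).

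Class III peroxidases, secreted enzymes that cross-link wall phenolics or make reactive oxygen, gave more falls than rises by gene but a higher total. Of their genes, 24 of 129 tested genes were called higher and 75 lower, with a median of -0.84. Their summed level was nevertheless 1706 to 2795 CPM in the wild types, 3400 to 3674 CPM in Mpfer-1 and 5708 to 6609 CPM in libraries labelled Mpmri-1. Rises of many CPM were measured in single members. MpPOD164 (Mp8g01700) was at 272, 280.4 and 372 CPM in Tak-1, 1619, 1653 and 1839 CPM in Mpfer-1, 269, 287 and 235 CPM in Tak-2 and 3144, 3563 and 1918 CPM in libraries labelled Mpmri-1. Both lines were above both wild types without overlap (log2 fold change 2.96 ± 0.22 SE, adjusted p = 5.12e-07). MpPOD88 (Mp5g10690) ranged from 4.50 to 93.6 CPM (median 24.3) in the wild types and from 272 to 424 CPM (median 388) in the mutants (log2 fold change 4.29 ± 0.77 SE, adjusted p = 4.93e-04). MpPOD89 (Mp5g10700) was at 173, 116 and 303 CPM in Tak-1, 479, 314 and 309.7 CPM in Mpfer-1, 5.54, 12.3 and 6.19 CPM in Tak-2 and 1567, 1132 and 1717 CPM in libraries labelled Mpmri-1. Its mutant libraries were all above the wild types, with log2 differences of 0.90 in Mpfer-1 and 7.52 in libraries labelled Mpmri-1 and a common effect of log2 fold change 4.15 ± 1.41 SE, adjusted p = 0.0241. That common value moved to between 5.32 and 5.37 without any 1 Mpfer-1 library and to between 2.95 and 3.02, with the call lost, without any 1 Tak-2 library. MpPOD166 (Mp8g07500) rose at a low level (log2 fold change 5.31 ± 0.24 SE, adjusted p = 1.95e-08).

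Among the peroxidase genes that fell, MpPOD154 (Mp7g14900) ranged from 25.51 to 45.5 CPM (median 37.0) in the wild types and from 2.05 to 6.82 CPM (median 3.30) in the mutants (log2 fold change -3.28 ± 0.27 SE, adjusted p = 1.10e-06). MpPOD52 (Mp5g01640) fell with log2 fold change -3.48 ± 0.25 SE, adjusted p = 3.47e-07. Polyphenol oxidases, copper enzymes that oxidise phenols to quinones, fell in most members: 11 of 40 tested genes were called higher and 27 lower, with a median of -1.88 and a summed level of 1453 to 1709 CPM in the wild types and 729 to 1340 CPM in the mutants. MpPPO6 (Mp3g22270) was at 16.4, 16.1 and 11.1 CPM in Tak-1, 0.895, 0.678 and 1.05 CPM in Mpfer-1, 10.5, 7.38 and 17.9 CPM in Tak-2 and 0.375, 0.202 and 0.593 CPM in libraries labelled Mpmri-1. No mutant library came near the wild types (log2 fold change -4.42 ± 0.31 SE, adjusted p = 3.20e-07). MpPPO8 (Mp5g14430) ranged from 23.1 to 54.8 CPM (median 37.3) in the wild types and from 2.53 to 4.35 CPM (median 2.98) in the mutants (log2 fold change -3.55 ± 0.21 SE, adjusted p = 1.03e-07), and MpPPO40 (Mp6g17740) gave log2 fold change -4.82 ± 0.46 SE, adjusted p = 3.15e-06. MpPPO4 (Mp2g05810) rose, with log2 fold change 4.28 ± 0.79 SE, adjusted p = 5.67e-04 and a larger difference in libraries labelled Mpmri-1 (6.60) than in Mpfer-1 (2.32).

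**Figure D5:**
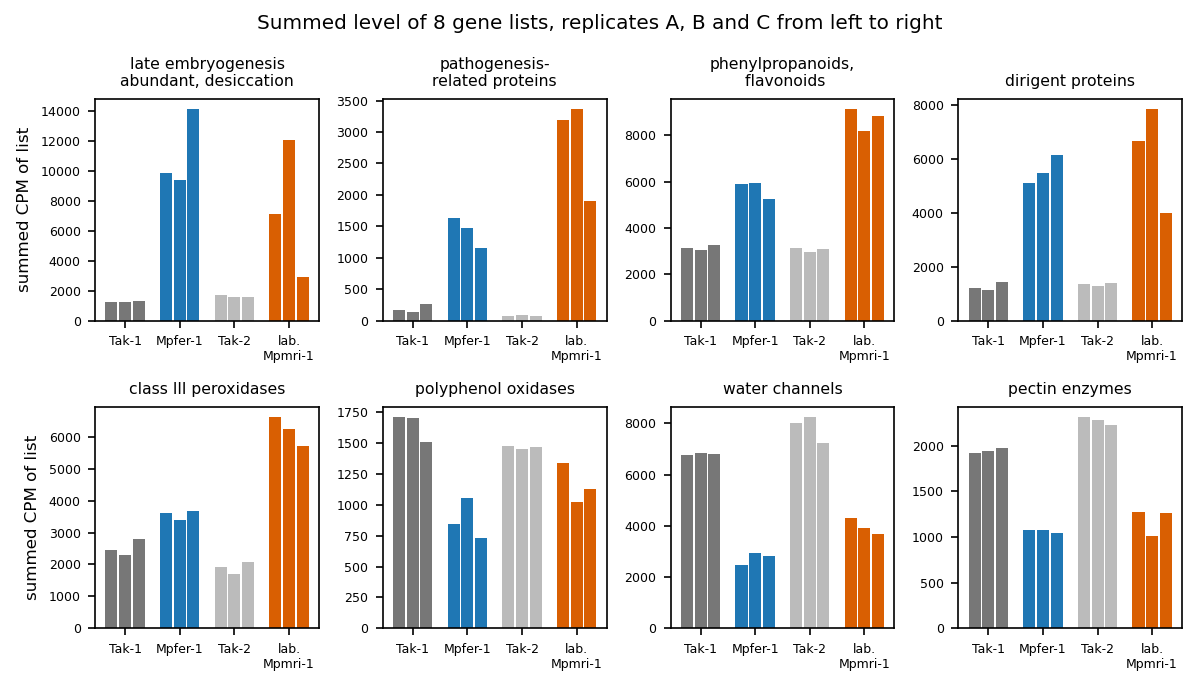
Summed CPM (y axes from 0) of the tested genes of 8 lists in each library, with replicates A, B and C from left to right in each group. Mutant libraries are above all wild types for LEA, pathogenesis-related, phenylpropanoid, dirigent and peroxidase genes and below for polyphenol oxidase, water channel and pectin enzyme genes, and replicate C labelled Mpmri-1 is the lowest mutant for LEA and dirigent genes.

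Genes named for pathogenesis-related (PR) proteins, a mixed set that includes secreted antimicrobial and wall proteins, were called higher in most tested members. The list held 49 genes, of which 34 were tested. Of the 34, 6 had at most 3 counts over the wild types and passed the count filter only through the mutants. Members with a few more wild-type counts did so too, and their number was not taken. Such genes could hardly be called lower. Of the list, 31 of 34 tested genes were called higher and 2 lower, with a median of 4.80 and a summed level of 74.8 to 268 CPM in the wild types and 1157 to 3360 CPM in the mutants. MpPR1w (Mp7g13960), of the PR1 class of small secreted proteins, was at 2.80, 2.30 and 5.80 CPM in Tak-1, 434, 404 and 309 CPM in Mpfer-1, 1.75, 4.11 and 2.24 CPM in Tak-2 and 830.0, 947 and 331 CPM in libraries labelled Mpmri-1. It was higher in all 6 mutants (log2 fold change 7.35 ± 0.45 SE, adjusted p = 1.24e-07). MpPR15l (Mp6g20640), a germin-like protein gene by its class, had 5 counts over the wild types and reached 10.4 to 49.5 CPM in the mutants (log2 fold change 9.79 ± 0.46 SE, adjusted p = 2.85e-08). MpPR15j (Mp6g20620) had 2 counts over the wild types, giving a ratio of 2786 in CPM (95% exact interval 771 to 23011), an interval for counting error only. MpPR1 (Mp3g14110) itself fell (log2 fold change -2.27 ± 0.67 SE, adjusted p = 0.0118), with -4.50 in Mpfer-1 and -0.40 in libraries labelled Mpmri-1.

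Genes of chitinases and glucanases, which digest fungal walls and plant callose, differed by family. Of 13 tested genes of glycoside hydrolase family GH19, chitinases by class, 8 were called higher and 0 lower. Of 8 genes of GH18, the other chitinase family, 2 were called higher and 2 lower, with a median of -0.16 and a summed level of 104 to 165 CPM in the wild types and 47.2 to 118 CPM in the mutants. MpGH19.13 (Mp5g02510) was at 18.4, 14.0 and 41.3 CPM in Tak-1, 672, 543 and 587 CPM in Mpfer-1, 3.5, 5.58 and 8.26 CPM in Tak-2 and 665, 673 and 709 CPM in libraries labelled Mpmri-1. Both lines reached similar levels from different wild-type levels (log2 fold change 5.71 ± 0.51 SE, adjusted p = 1.82e-06), with 4.61 in Mpfer-1 and 6.87 in libraries labelled Mpmri-1. MpGH19.6 (Mp4g20440) ranged from 1.17 to 16.4 CPM (median 4.37) in the wild types and from 144 to 266 CPM (median 179.7) in the mutants (log2 fold change 5.23 ± 0.51 SE, adjusted p = 4.04e-06). Of 23 GH17 genes, the class of beta-glucanases, 15 were higher and 2 lower, and MpGH17.10 (Mp2g14720) gave log2 fold change 5.22 ± 0.40 SE, adjusted p = 5.73e-07. WRKY transcription factors act in defence and stress responses of flowering plants, and of their genes here 9 of 13 tested genes were called higher and 3 lower. MpWRKY7 (Mp3g17660) ranged from 0.330 to 1.69 CPM (median 0.979) in the wild types and from 7.11 to 12.1 CPM (median 8.46) in the mutants (log2 fold change 3.34 ± 0.28 SE, adjusted p = 1.16e-06). MpWRKY14 (Mp6g16800) and MpWRKY10 (Mp7g06550) rose with log2 fold changes of 2.01 and 1.44. MpWRKY9 (Mp7g17200) fell (log2 fold change -1.11 ± 0.11 SE, adjusted p = 3.22e-06).

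AP2/ERF factors, another class active in stress responses, had 11 of 20 tested genes higher and 2 lower. MpERF15 (Mp7g09350) rose with log2 fold change 1.95 ± 0.19 SE, adjusted p = 4.24e-06, and MpERF9 (Mp4g17430) with log2 fold change 5.77 ± 0.75 SE, adjusted p = 3.68e-05, or 5.02 without replicate C of Mpfer-1. Glutathione transferases, which conjugate reactive compounds, had 12 of 33 tested genes higher and 7 lower, or 4 lower with library totals. MpGST28 (Mp2g24970) ranged from 7.30 to 14.97 CPM (median 9.04) in the wild types and from 130.0 to 345 CPM (median 206) in the mutants (log2 fold change 4.44 ± 0.26 SE, adjusted p = 1.03e-07), and MpGST31 (Mp2g18340) gave log2 fold change 2.99 ± 0.12 SE, adjusted p = 1.04e-08. MpGST2 (Mp6g09140) fell with log2 fold change -0.94 ± 0.06 SE, adjusted p = 2.30e-07. MpMATE15 (Mp6g02120), of a family of multidrug and toxin exporters, had one of the smallest adjusted p-values of all rises, with levels that ranged from 1.38 to 2.60 CPM (median 1.82) in the wild types and from 16.7 to 26.2 CPM (median 22.6) in the mutants (log2 fold change 3.55 ± 0.12 SE, adjusted p = 6.79e-09).

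Genes of wall loosening and pectin modification fell more often than they rose. Expansins loosen growing walls, and of their genes 5 of 29 tested genes were called higher and 17 lower, with a median of -0.83. Without sex as a covariate 3 were called higher. Their summed level fell from 1468 to 2631 CPM in the wild types to 867 to 1348 CPM in the mutants. MpExpansin32 (Mp4g06560) was at 195, 206 and 190.5 CPM in Tak-1, 46.6, 59.9 and 48.1 CPM in Mpfer-1, 453, 411 and 375 CPM in Tak-2 and 43.8, 50.3 and 61.1 CPM in libraries labelled Mpmri-1. Every Tak-2 library was above every Tak-1 library, whereas the mutant libraries of both sexes overlapped at a low level (log2 fold change -2.47 ± 0.19 SE, adjusted p = 6.65e-07). MpExpansin13 (Mp3g03880) fell with log2 fold change -2.12 ± 0.16 SE, adjusted p = 5.33e-07, while MpExpansin16 (Mp3g03970) rose (log2 fold change 1.09 ± 0.17 SE, adjusted p = 1.32e-04). Of pectin enzymes, 6 of 23 tested genes were called higher and 12 lower, and the summed level went from 1924 to 2310 CPM down to 1009 to 1273 CPM. MpCE8.3 (Mp2g01420), of the pectin methylesterase class that sets wall stiffness at growing tips, ranged from 216 to 347 CPM (median 268) in the wild types and from 62.5 to 95.3 CPM (median 86.5) in the mutants (log2 fold change -1.68 ± 0.15 SE, adjusted p = 1.54e-06). MpPL1.3 (Mp3g01000), of the pectate lyase class, ranged from 246 to 427 CPM (median 292) in the wild types and from 78.9 to 158 CPM (median 124) in the mutants (log2 fold change -1.42 ± 0.13 SE, adjusted p = 2.86e-06). GH16 genes, the class of xyloglucan-modifying enzymes among others, had 14 of 30 lower and 7 higher, and MpGH16.30 (Mp4g00700) gave log2 fold change -3.67 ± 0.36 SE, adjusted p = 4.34e-06.

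Cellulose synthase-like D proteins make wall polymers at the tips of root hairs and rhizoids. Of 10 tested genes of the cellulose synthase list, which here were all of the CSLD type, 3 were higher and 4 lower. MpCSLD4 (Mp2g05640) was at 36.3, 32.6 and 25.9 CPM in Tak-1, 7.86, 8.999 and 7.74 CPM in Mpfer-1, 26.6, 19.1 and 28.4 CPM in Tak-2 and 5.81, 4.72 and 11.9 CPM in libraries labelled Mpmri-1, and fell in both lines (log2 fold change -1.83 ± 0.21 SE, adjusted p = 1.36e-05). MpCSLD9 (Mp7g07800) ranged from 496 to 578 CPM (median 513) in the wild types and from 737 to 1079 CPM (median 779) in the mutants and rose (log2 fold change 0.65 ± 0.10 SE, adjusted p = 1.83e-04). MpCSLD5 (Mp2g05670) and MpCSLD2 (Mp2g05660) fell with log2 fold changes of -1.56 and -1.26, and MpCSLD10 (Mp8g17530) rose by 0.44. The longer list of rhizoid growth genes, which contains the CSLD genes, had 3 of 14 tested genes higher and 5 lower.

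Plasma membrane proton pumps acidify the wall and power uptake. Of the pump list, 4 of 18 tested genes were called higher and 11 lower, with a median of -0.61. Their summed level overlapped between groups, at 2842 to 3069.7 CPM in the wild types and 2605 to 3286 CPM in the mutants. MpHA13 (Mp3g07690) was at 102, 92.1 and 103 CPM in Tak-1, 19.4, 17.1 and 21.3 CPM in Mpfer-1, 92.8, 67.0 and 127 CPM in Tak-2 and 9.56, 7.45 and 20.9 CPM in libraries labelled Mpmri-1, and no mutant library overlapped the wild types (log2 fold change -2.63 ± 0.25 SE, adjusted p = 3.24e-06). MpHA15 (Mp3g12440) and MpHA12 (Mp3g07710) also fell, by 2.24 and 3.37 on the log2 scale. MpHA8 (Mp4g06820) ranged from 46.7 to 78.7 CPM (median 68.2) in the wild types and from 156 to 218 CPM (median 179.9) in the mutants and rose (log2 fold change 1.47 ± 0.09 SE, adjusted p = 1.13e-07), as did MpHA4 (Mp3g12410), with log2 fold change 1.79 ± 0.31 SE, adjusted p = 3.80e-04. All 6 tested ammonium transporter genes were called, 4 lower and 2 higher. MpAMT1.2 (Mp6g08310) ranged from 220.1 to 292 CPM (median 262) in the wild types and from 62.3 to 182 CPM (median 107) in the mutants (log2 fold change -1.28 ± 0.21 SE, adjusted p = 2.40e-04). NPF genes, the family of nitrate and peptide transporters, had 14 of 23 tested genes higher and 3 lower. MpNPF21 (Mp5g04910) rose with log2 fold change 1.99 ± 0.18 SE, adjusted p = 2.41e-06 and MpNPF14 (Mp3g13790) fell with log2 fold change -1.96 ± 0.18 SE, adjusted p = 2.98e-06.

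Autophagy and light signalling genes were called lower more often than higher. Of autophagy genes, which deliver cell contents to the vacuole for recycling, 2 of 21 tested genes were called higher and 13 lower, with a median of -0.26. With library totals in place of TMM, 7 were called lower. MpATG14 (Mp1g00090) ranged from 45.1 to 52.5 CPM (median 48.3) in the wild types and from 31.2 to 38.9 CPM (median 35.7) in the mutants (log2 fold change -0.46 ± 0.06 SE, adjusted p = 6.51e-05), and MpATG11 (Mp4g18080) gave log2 fold change -0.58 ± 0.12 SE, adjusted p = 0.00152. Of light signalling genes, 1 of 17 tested genes were called higher and 11 lower, with a median of -0.30. MpCOP1 (Mp5g12010) and MpDET1 (Mp8g00970), both repressors of light responses in Arabidopsis, fell with log2 fold changes of -0.89 and -0.79. MpPHOT (Mp5g03810), the blue-light receptor of chloroplast movement, fell too (log2 fold change -0.76 ± 0.09 SE, adjusted p = 2.11e-05). In the auxin list, which had 7 of 15 tested genes higher and 4 lower, MpARF1 (Mp1g12750), for the activating response factor, ranged from 146 to 166 CPM (median 158) in the wild types and from 90.1 to 116 CPM (median 96.8) in the mutants (log2 fold change -0.67 ± 0.07 SE, adjusted p = 3.62e-06). MpPIN3 (Mp6g07950), for an auxin carrier of the PIN family, ranged from 1.83 to 16.6 CPM (median 5.47) in the wild types and from 70.8 to 166 CPM (median 93.1) in the mutants and rose (log2 fold change 4.34 ± 0.33 SE, adjusted p = 5.77e-07). Receptor-like kinases had 19 of 86 tested genes higher and 34 lower, bZIP factors had 2 of 13 tested genes higher and 7 lower and pentatricopeptide repeat proteins of the organelles had 15 of 72 tested genes higher and 26 lower. With library totals 4 bZIP and 17 pentatricopeptide repeat genes were called lower, and leaving out 1 library gave as few as 3 bZIP genes, without replicate A or B of Mpfer-1. Genes of DNA replication and the cell cycle had 4 of 26 tested genes higher and 6 lower, and histones had 1 of 25 tested genes higher and 4 lower. The difference between lines was called for 19 of the 25 histone genes. Mpfer-1 had 12 falls and 0 rises among them (median -0.52), whereas 11 rises and 2 falls were called against Tak-2 in the female mutant (median 0.33).

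Markers of cell types and organs were checked beside these groups. Of 4 oil body cell markers, cells that store sesquiterpenes and bibenzyls, 3 were called higher and 0 lower, and the regulator MpC1HDZ (Mp3g02320) ranged from 31.8 to 43.5 CPM (median 41.9) in the wild types and from 63.2 to 88.8 CPM (median 67.8) in the mutants (log2 fold change 0.85 ± 0.10 SE, adjusted p = 2.42e-05). The summed level of these markers was 55.6 to 77.2 CPM in the wild types and 99.3 to 128 CPM in the mutants. With library totals, or without replicate C of the libraries labelled Mpmri-1, 2 of them were called higher. Of 4 gemma cup markers 2 were higher, and MpGCAM1 (Mp6g04830), which directs cup formation, gave log2 fold change 1.74 ± 0.38 SE, adjusted p = 0.00198 with 0.75 in Mpfer-1 and 3.09 in libraries labelled Mpmri-1. Of 2 tested gametangium markers 1 was lower, MpRKD (Mp3g04030), with log2 fold change -0.37 ± 0.11 SE, adjusted p = 0.0123, a call lost when library totals replaced TMM (adjusted p = 0.0876). The only rhizoid precursor marker tested was not called (log2 fold change -0.12). It was at 166 to 199 CPM in the wild types and 158 to 183 CPM in the mutants. MpBNB, MpRSL1 and MpLRL1 had no matched symbol and were not used here. The part of a change in cell makeup in the gene groups above was not tested.

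Several of the genes named for their shift in mean CPM had no symbol. Mp7g02900 was at 1063, 583 and 1905 CPM in Tak-1, 19923, 20517 and 18077 CPM in Mpfer-1, 80.1, 250.0 and 123 CPM in Tak-2 and 36668, 42126 and 24672 CPM in libraries labelled Mpmri-1. In the mutants it was the gene with the largest rise in mean CPM, and every mutant library was at 18077 CPM or higher (log2 fold change 5.94 ± 0.83 SE, adjusted p = 7.10e-05), with 4.04 in Mpfer-1 and 7.84 in libraries labelled Mpmri-1. Mp2g01360 ranged from 18.8 to 89.4 CPM (median 48.7) in the wild types and from 401 to 3997 CPM (median 2635) in the mutants (log2 fold change 5.79 ± 0.66 SE, adjusted p = 1.41e-05) and Mp8g08950 from 14.96 to 175 CPM (median 32.6) in the wild types and from 1099 to 2283 CPM (median 1375) in the mutants (log2 fold change 5.12 ± 0.66 SE, adjusted p = 3.81e-05). Mp4g05240 rose with log2 fold change 3.67 ± 0.44 SE, adjusted p = 2.13e-05. Among the falls, Mp8g15740 ranged from 5488 to 8546 CPM (median 6982) in the wild types and from 1007 to 3254 CPM (median 2007) in the mutants (log2 fold change -1.90 ± 0.19 SE, adjusted p = 4.01e-06) and Mp7g08890 from 3560.4 to 5906 CPM (median 4615) in the wild types and from 1067 to 2051 CPM (median 1507) in the mutants (log2 fold change -1.65 ± 0.11 SE, adjusted p = 1.54e-07). Mp4g06050 and Mp2g15110 fell by 1.39 and 2.96 on the log2 scale. The common effect with the smallest adjusted p was Mp3g19770, at 120.1, 125 and 119 CPM in Tak-1, 13.7, 12.9 and 12.2 CPM in Mpfer-1, 156, 157 and 153 CPM in Tak-2 and 14.4, 18.5 and 16.3 CPM in libraries labelled Mpmri-1. Replicates and lines were almost equal in their fall (log2 fold change -3.23 ± 0.07 SE, adjusted p = 7.03e-11), with -3.23 in Mpfer-1 and -3.24 in libraries labelled Mpmri-1. Mp8g02320, with the smallest adjusted p of the rises, ranged from 17.0 to 23.3 CPM (median 18.6) in the wild types and from 149 to 188 CPM (median 175) in the mutants (log2 fold change 3.16 ± 0.09 SE, adjusted p = 1.08e-09). Mp8g03220 rose with log2 fold change 2.90 ± 0.10 SE, adjusted p = 8.20e-09. Mp8g05750 and Mp8g18020 fell by 2.26 and 2.19 on the log2 scale.

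The called genes were spread over the genome. On chromosomes 1 to 8 the share called higher ran from 27.5% to 32.2% and the share called lower from 26.2% to 29.3%. On the female chromosome U 4 of 34 tested genes were higher and 10 lower, and on the male chromosome V 8 of 44 were higher and 9 lower. Each of those 2 chromosomes is present in 1 sex, so its genes were compared within that sex only. Runs of at least 5 identifiers consecutive in the deposited counts, all called 1 way with a log2 fold change of at least 1, numbered 22. Of these, 19 were higher and 3 lower, and the 22 held 130 genes. Besides the PAL and CHS run, 8 consecutive genes from MpLEA-like39 to MpLEA-like46 were higher with a median of 9.82. Another 6 from MpLEAL3 to MpLEA-like38 had a median of 8.98. A run from MpPR15b to MpPR15e held 6 PR15 and cupin genes with a median of 4.89. Members of such tandem families can share reads, and their values are not independent of each other.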

How the data were processed

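RNA from 12 samples was sequenced with libraries from a stranded mRNA kit, per the labels' protocols. The authors deposited 1 table of estimated counts per transcript model for 23399 models, with values that need not be whole. Per the submitters' processing notes, FastQC, fastp and DESeq2 were used; quantifier, genome build and annotation: not given in the sources used here. The table holds 0 spike-in rows, so equal total RNA per sample is assumed in every difference.

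Models were summed to 18336 genes by removing the isoform number, and the sums were rounded to whole counts. edgeR 4.0.16 in R 4.3.3 tested the 14044 genes that passed filterByExpr on the 4 groups. TMM scaling, sex and mutant status formed the model of the common effect, with 9 residual degrees of freedom, so a difference between lines counts as spread. A second model with 1 mean per group had 8 residual degrees of freedom and gave each line's own effect and their difference. Most residual degrees of freedom of the first model thus come from replicates within groups and not from lines. Adjusted p-values are Benjamini-Hochberg over all tested genes. Effects on genes with at most 3 counts on a side are given as ratios with 95% exact intervals. The scripts were tested on simulated data.

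Symbols came from the RefSeq table of assembly MpTak2_v7.1, joined by locus number: 17416 identifiers had a counterpart, with an equal isoform number in 90.2% of cases against 76.3% when shifted by 1 gene, and 2672 tested genes had a symbol. A symbol gives a class, not a tested function. Genes were named by fixed rules: the targeted genes, the largest shifts in CPM, the largest log2 fold changes among genes with a symbol, the smallest adjusted p-values, and in each list up to 4 called members each way, or every member of a list of at most 8. A gene withheld from the text is not reported here. A gene of the shared set had all mutant libraries beyond all wild types. The PAL and CHS run and its neighbours were chosen after their values were seen. The comparison, members and lists were chosen with earlier results of these data known, and list patterns were corrected after the symbols, but before the values, were read.

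The labels do not say whether the replicate letters pair the samples. Same-letter correlations of deviations from group means ran from -0.25 to 0.19, and 3 of 18 were over 0.1. Within a sex they were weak and positive. They ran from 0.052 to 0.17 between Tak-1 and Mpfer-1 and from 0.069 to 0.19 between Tak-2 and libraries labelled Mpmri-1. No pair of replicates was as close as sampling noise, with chi-square per degree of freedom of 4.94 or more. Alternatives were RLE size factors, library totals, no filter, 1 mean per group, DESeq2 1.42.0, limma 3.58.1 with voom, the replicate block, no U or V genes, no sex term, and each library left out.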

Additional observations from a re-analysis of the deposited data

Results flagged for a closer look

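For 45 of the 115 genes named in the text, the effect of the libraries labelled Mpmri-1 over Tak-2 differed from that of Mpfer-1 over Tak-1, by edgeR's test of the difference itself with adjustment over all 14044 genes. Of all tested genes 37.3% gave such a difference. The largest adjusted p among the 45 was 0.0382. Values in brackets are log2 differences, the effect in libraries labelled Mpmri-1 minus that in Mpfer-1. They may belong to the line, its targeted gene or its sex, which cannot be told apart. In 42 of the 45 both lines had the same sign, and in 30 the size was larger in libraries labelled Mpmri-1. TMM scaling shifts all these log2 differences up relative to library totals, so the smaller ones depend on it in part.

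Among genes with positive log2 fold changes in both lines, the value was larger in libraries labelled Mpmri-1 for MpPPO4 (4.28), MpGH17.10 (2.07), MpCYP707A (2.86), MpHA4 (1.79) and MpWRKY7 (1.57). It was also larger there for MpNOX2 (0.38), Mp4g05240 (2.31), MpPKS/CHS10 (0.53), MpPAL7 (2.50) and MpPKS/CHS16 (3.49). The same held for MpGH19.6 (2.29), MpGH19.13 (2.26), MpNPF21 (1.10), MpPOD88 (4.24) and MpPOD89 (6.62). Further such genes were MpGCAM1 (2.34), Mp7g02900 (3.79), MpWRKY10 (0.51), MpPAL3 (1.58) and MpPOD164 (0.98). Genes Mp8g08950 (3.08) and MpNIP (0.83) belong here as well. The value was larger in Mpfer-1 for Mp2g01360 (-2.69), MpABI5B (-0.97), MpLDAP (-0.69) and MpPIN3 (-1.64).

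Among genes with negative values in both lines, the size was larger in libraries labelled Mpmri-1 for MpCE8.3 (-0.83), MpRKD (-0.60), MpNPF14 (-1.11), MpExpansin32 (-1.06) and MpCOP1 (-0.36). A larger size there was also measured for MpPPO8 (-0.96) and MpDET1 (-0.50). The size was larger in Mpfer-1 for MpRALF2 (0.77), MpPR1 (4.09), MpGH16.30 (1.64), MpPIP2-like (3.58) and Mp4g06050 (1.003). Mpfer-1 also had the larger size for MpAMT1.2 (1.21), MpLEA-like54 (0.95), MpPOD154 (1.19) and Mp8g15740 (0.92). The lines had opposite signs for MpRBCS (2.23), MpFER (0.87) and MpMRI (1.46). MpFER and MpMRI, the targeted genes, are among the last. MpCYP707A and MpRKD were not called in Mpfer-1 (0.07 and -0.07), nor were MpRALF2 and MpPR1 in libraries labelled Mpmri-1 (-0.16 and -0.40).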

How the results depend on the processing

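The common effect was stable in extent over the 21 alternatives. Genes called higher numbered 3675 to 4844 and genes called lower 3138 to 4612, against 4256 and 3929. Leaving out 1 library at a time gave 3955 to 4341 higher and 3606 to 4041 lower. Both lowest counts came without sex as a covariate (3675 and 3138) and both highest with 1 mean per group (4844 and 4612). With library totals in place of TMM, 4210 were higher and 3268 lower, so the share of calls that were higher went from 52.0% to 56.3%, while the median of all genes moved by less than 0.1. The difference between lines was called for 6334 genes with library totals, against 5238 with TMM. Leaving out 1 library at a time gave 4234 to 6308 such genes. With a replicate block there were 4029 higher and 3684 lower, and 93.7% of the 8185 genes were called in that fit. The labels do not say whether the letters pair the samples.

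For the 115 named genes, 2390 of 2414 values under alternatives had the same direction and call, 12 lost the call, 12 gained it and 0 reversed. The genes with a changed call were MpFER, MpMRI, MpCYP707A, MpPOD89, MpRKD and MpRBCS. MpFER was called lower with 1 mean per group (-0.35, adjusted p = 1.73e-04) and without replicate A labelled Mpmri-1 (-0.42, adjusted p = 0.0188). The cause was not tested. Low counts limit the folds of genes near 0 in the wild types, and 72 of the genes called higher had at most 3 counts there. Those 72 passed the count filter only through the mutants. Genes with a few more wild-type counts did so too, and their number was not taken.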
